A study of Mus musculus with 6 samples.

Results

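Histone chaperones are proteins that hold histones outside the nucleosome and hand them on to DNA. The 10 genes described here, of 27998 gene columns in the table, are those that encode the CAF-1 subunits Chaf1a, Chaf1b and Rbbp4, the H3-H4 chaperones Asf1a, Asf1b and Nasp, Hira and Daxx, which act outside replication, and the FACT subunits Ssrp1 and Supt16. They were chosen by name and not by their values, though with earlier results of these data known. All 10 had UMIs in the data. Levels are UMIs per 1000000 UMIs of a library (CPM). A mean over the libraries of 20 CPM or more was the limit where all genes were counted, which 8 of the members reached and Chaf1b and Hira did not.

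Granulocyte-macrophage progenitors from mouse bone marrow, labelled strain C57BI/6 and Lys-GFP-ER-HoxA9 cells, were kept in self-renewal (iGMPs) by HOXA9 fused to an estrogen receptor domain, in medium with stem cell factor and estradiol at 150 ng/mL. In CAF-1 OFF, IPTG at 500 µM switched on an shRNA against Chaf1b in 1 clone while estradiol was kept, so that HOXA9 stayed active. In HOXA9 OFF, estradiol was withdrawn from 1 clone with a control shRNA vector and no IPTG was given, after which the cells mature into neutrophils. Each arm had 1 droplet single-cell library (10x, 3′ ends of transcripts) at 0 h, when neither clone was induced, at 48 h and at 96 h. All 6 libraries carry the HOXA9 fusion and a GFP reporter in the lysozyme gene, and clone and treatment cannot be told apart between the arms.

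During DNA replication, CAF-1 places newly made H3-H4 onto DNA behind the fork, where it is held by the sliding clamp PCNA. Asf1a and Asf1b carry H3-H4 dimers to CAF-1 or to HIRA, Nasp keeps a soluble reserve of H3-H4, and Rbbp4 is a histone-binding protein that CAF-1 shares with other chromatin complexes. HIRA and DAXX place the variant H3.3 without replication, and FACT takes nucleosomes apart and rebuilds them for polymerases. In blood progenitors CAF-1 is known for holding cells in their identity.

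The kept cells numbered 473 to 1510 per library and held 3524285 to 5589486 UMIs, so a floor of 3 UMIs corresponded to 0.537 to 0.851 CPM. The median UMI count per cell was 5956 to 8660 in the uninduced and CAF-1 OFF libraries, 3535.5 in HOXA9 OFF at 48 h and 2043.5 at 96 h. Of 8 late granulocyte markers, 2 and 4 had a UMI in the uninduced libraries and all 8 in HOXA9 OFF at both later times, with sums of 5.73 to 24.4 CPM against 9049 and 138025 CPM. In CAF-1 OFF 7 had a UMI at 48 h and 6 at 96 h, with sums of 601 and 759 CPM. All 7 progenitor markers had UMIs in every library, with sums from 6546 to 11327 CPM except in HOXA9 OFF, where they were at 3985 CPM at 48 h and 114 CPM at 96 h. Other blood lineages moved too: 4 eosinophil markers went from 876 to 16747 CPM at 48 h and 3099 CPM at 96 h of HOXA9 OFF, with Epx, Ear1 and Ear2 at no UMI at 0 h. Along CAF-1 OFF, the sum of 5 mast cell or basophil markers went from 250.1 to 3983 CPM by 96 h. That of 5 megakaryocyte markers went from 45.3 to 2696 CPM, of which Pf4 held 2481 CPM and Itga2b 73.0 CPM. Gp1bb, also on that list, had no UMI in this arm. By 96 h of CAF-1 OFF the sum of 5 erythroid markers went from 99.9 to 310 CPM. That of 4 lymphoid markers went from 54.1 to 322 CPM. The eosinophil sum went from 141 to 879 CPM there, with Epx, Ear1 and Ear2 at no UMI at 96 h. The part of these cell types in the results was not tested. The 7 markers of tissues other than blood held 1 UMI in all. Of the kept cell barcodes, 16 occurred in more than 1 library. As there was 1 library per group, no difference was tested. Intervals are 95% exact, Poisson for CPM and binomial for folds and shares of cells, and cover counting error only. In sums over a library, fewer cells of a type and less RNA per cell cannot be told apart.

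The sequences before the start sites of 4 members are shown because Asf1b and Asf1a moved apart in CAF-1 OFF and because Chaf1a and Chaf1b encode the subunits that only CAF-1 has. They are the 250 bases before the RefSeq start site on GRCm38.p6, read 5′ to 3′ along the gene. Capitals mark matches to words known from the promoters of cell cycle genes. The words are the CCAAT box, searched as CCAAT, the cell cycle homology region (CHR), searched as TTTGAA, and E2F sites, searched as TTTCCCGC, as TTTGGCGC, as TTTCGCGC or as TTTGCCGC. Both strands were searched, so a match may appear as the reverse complement, and none of the marked matches overlap.
Chaf1a, GRCm38.p6 chr17:56040166-56040415, plus strand: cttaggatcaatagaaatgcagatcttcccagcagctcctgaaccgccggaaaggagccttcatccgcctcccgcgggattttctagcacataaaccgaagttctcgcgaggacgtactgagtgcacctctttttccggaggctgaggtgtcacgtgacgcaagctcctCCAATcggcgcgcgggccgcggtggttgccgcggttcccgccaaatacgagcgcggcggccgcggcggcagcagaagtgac
Chaf1b, GRCm38.p6 chr16:93883651-93883900, plus strand: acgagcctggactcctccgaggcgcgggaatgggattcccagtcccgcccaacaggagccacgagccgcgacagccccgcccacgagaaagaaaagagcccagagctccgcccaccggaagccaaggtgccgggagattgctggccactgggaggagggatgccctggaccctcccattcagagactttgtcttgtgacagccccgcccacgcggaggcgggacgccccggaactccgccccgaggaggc
Asf1a, GRCm38.p6 chr10:53596711-53596960, plus strand: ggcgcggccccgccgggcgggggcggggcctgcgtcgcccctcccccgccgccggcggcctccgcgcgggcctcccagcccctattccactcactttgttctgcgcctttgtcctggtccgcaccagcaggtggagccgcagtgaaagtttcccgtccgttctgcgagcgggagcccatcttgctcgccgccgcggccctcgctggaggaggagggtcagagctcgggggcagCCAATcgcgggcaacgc
Asf1b, GRCm38.p6 chr8:83955444-83955693, plus strand: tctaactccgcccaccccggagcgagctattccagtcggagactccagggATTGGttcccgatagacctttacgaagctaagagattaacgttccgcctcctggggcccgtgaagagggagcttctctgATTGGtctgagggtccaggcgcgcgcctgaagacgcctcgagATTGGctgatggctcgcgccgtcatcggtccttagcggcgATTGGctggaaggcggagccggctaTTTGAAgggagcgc

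The Asf1b stretch holds 4 CCAAT words, all on the other strand, and 1 CHR word that starts 14 bases before the start site. Asf1a and Chaf1a hold 1 CCAAT word each, and Chaf1b none of the words. Among 32851 RefSeq promoters of 300 bases, which run 50 bases past the start, 1.06% have 4 or more CCAAT words and 0.195% have these with a CHR word. These classes follow the pattern of the Asf1b stretch, so the shares give no support to a role for it. The promoter of Anp32e, an H2A.Z chaperone gene, also holds 4 CCAAT words and 1 CHR word. Over the 10 members, all of which matched a promoter, CCAAT was found in 6 (37.4% of all promoters), CHR in Asf1b, Nasp and Ssrp1 (17.9%), and an E2F word in Ssrp1 alone (2.26%). A match is a description of the letters and not a binding site.

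To ask how the knockdown bore on the RNA of its own target and of the partner subunits, the CAF-1 genes were followed first. Chaf1b, the WD-repeat subunit that the hairpin targets, began CAF-1 OFF at 35.6 CPM (30.1 to 41.8), had 3.22 CPM (1.91 to 5.09) after 48 h and 6.49 CPM (4.52 to 9.02) after 96 h. The later levels lay 11.1-fold (6.76 to 19.2) and 5.49-fold (3.78 to 8.17) below 0 h. From 48 to 96 h Chaf1b came back 2.01-fold (1.11 to 3.78), on 18 and 35 UMIs. In HOXA9 OFF, which has no hairpin against it, Chaf1b was at 51.5, 15.3 and 1.13 CPM, which is 3.38-fold (2.61 to 4.42) and 45.4-fold (17.5 to 168) lower than at 0 h, the last on 4 UMIs. In order, the 6 libraries ran from HOXA9 OFF 0 h over CAF-1 OFF 0 h, HOXA9 OFF 48 h, CAF-1 OFF 96 h and CAF-1 OFF 48 h to HOXA9 OFF 96 h, and only the intervals of the last 3 touched those of a neighbour. The uninduced clones themselves differed, with Chaf1b 1.45-fold (1.17 to 1.80) higher in that of HOXA9 OFF.

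Chaf1a, the large subunit that binds PCNA, did not differ from 0 h past counting error at 48 h of CAF-1 OFF. Its levels at 0, 48 and 96 h were 32.7, 29.0 and 23.0 CPM, a ratio to 0 h of 0.885 (0.701 to 1.12) at 48 h and 0.702 (0.546 to 0.901) at 96 h. These are RNA levels and do not show the protein. The study reports by western blot that CHAF1A protein was degraded when CHAF1B was depleted. Of the UMIs of Chaf1a and Chaf1b together, Chaf1a made up 47.9% at 0 h, 90% (84.7 to 94.0) at 48 h and 78.0% (70.7 to 84.2) at 96 h. In HOXA9 OFF both subunits were lower, and the Chaf1a share was 38.5% (33.3 to 43.8) at 0 h and 45.6% (37.5 to 54.0) at 48 h, which overlap. Chaf1a was at 32.2 CPM at 0 h and 12.8 CPM (9.94 to 16.2) at 48 h there, 2.52-fold (1.87 to 3.42) lower. At 96 h it had 0 UMIs, with an upper bound of 1.05 CPM. Set to 3 counts it would be 37.8-fold lower than at 0 h, a value without an interval and not a bound. The uninduced clones had nearly the same Chaf1a level, with a ratio of 0.984 (0.770 to 1.26).

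Rbbp4 had the smallest fold of the 3 subunits in HOXA9 OFF, with an interval apart from those of the others at 96 h. Its levels there were 162, 82.3 and 52.2 CPM, 1.96-fold (1.74 to 2.22) and 3.09-fold (2.63 to 3.66) lower at 48 and 96 h. Its CAF-1 OFF levels were 186, 176 and 139 CPM, 1.34-fold (1.21 to 1.48) lower at 96 h. Rbbp7, its close paralog and a partner of the histone acetyltransferase Hat1, fell further in HOXA9 OFF, 4.19-fold and 15.9-fold. The Rbbp4 share of the pair's UMIs therefore went from 48.5% to 66.7% (63.0 to 70.3) and 82.9% (77.3 to 87.6) in HOXA9 OFF, and stayed between 46.3% and 47.1% in CAF-1 OFF.

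**Figure D1:**
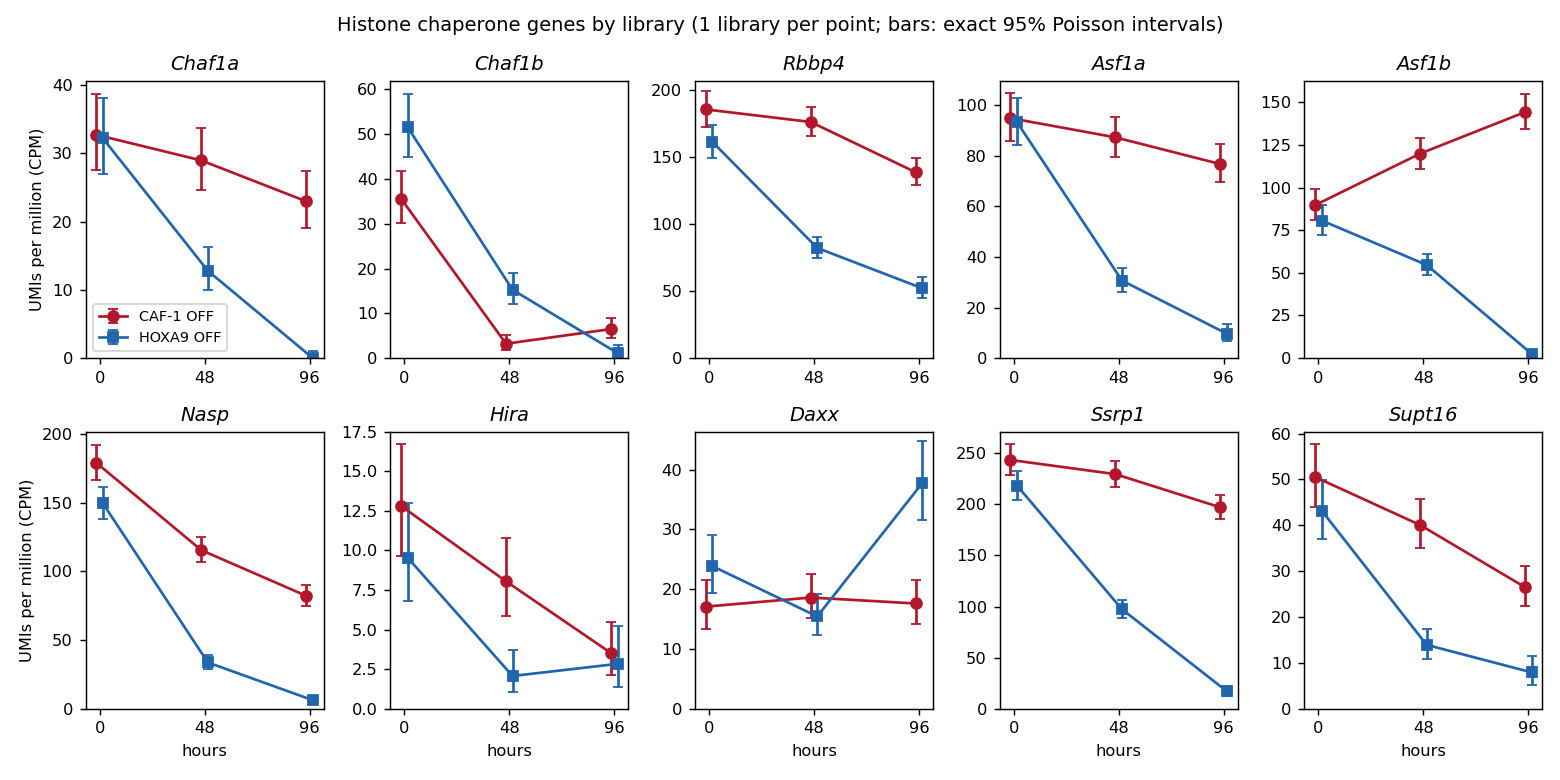
Levels in CPM (linear axes from 0, one scale per panel) of the 10 genes against hours, for CAF-1 OFF (red circles) and HOXA9 OFF (blue squares). Each point is 1 library and bars are exact 95% Poisson intervals. Chaf1b falls to 3.22 CPM at 48 h of CAF-1 OFF, Asf1b climbs from 89.7 to 144 CPM in the same arm, and 9 of the 10 genes are lower at 96 h of HOXA9 OFF than at 0 h, the exception being Daxx.

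The Asf1 paralogs moved apart in CAF-1 OFF. Asf1b, the paralog tied to proliferating cells, started from 89.7 CPM (80.9 to 99.2), reached 119.9 CPM (111 to 129) by 48 h and 144 CPM (134 to 155) by 96 h, so the 3 intervals do not overlap. It was 1.34-fold (1.18 to 1.52) and 1.61-fold (1.42 to 1.82) above 0 h, the only member above its 0 h level at both times by more than counting error. With a limit of 5% on mitochondrial UMIs the log2 ratio at 96 h, after adding 10 CPM to both levels, was 0.33 in place of 0.63. Asf1a was at 94.9, 87.3 and 76.7 CPM, 1.24-fold (1.08 to 1.42) lower at 96 h. The Asf1b share of the pair's UMIs was 48.6% (45.0 to 52.2), 57.9% (55.0 to 60.7) and 65.3% (62.5 to 68.0).

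In HOXA9 OFF both paralogs were lower at both times. Asf1a was at 93.3, 30.7 and 9.65 CPM, 3.04-fold (2.53 to 3.67) and 9.67-fold (6.81 to 14.2) lower. Asf1b was at 80.7, 54.6 and 2.55 CPM, 1.48-fold (1.26 to 1.73) and 31.6-fold (16.4 to 69.7) lower. Its 9 UMIs at 96 h came from 4 of 1510 cells, and 1 cell held 6 of them. The intervals treat UMIs as independent, so they understate the error at that time. By these folds Asf1a had fallen further than Asf1b at 48 h, and Asf1b further than Asf1a at 96 h. The Asf1b share went from 46.4% up to 64.0% (59.4 to 68.4) at 48 h and down to 20.9% (10.0 to 36.0) at 96 h, the last on 43 UMIs. The opposite direction of Asf1b in the arms was not tested.

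**Figure D2:**
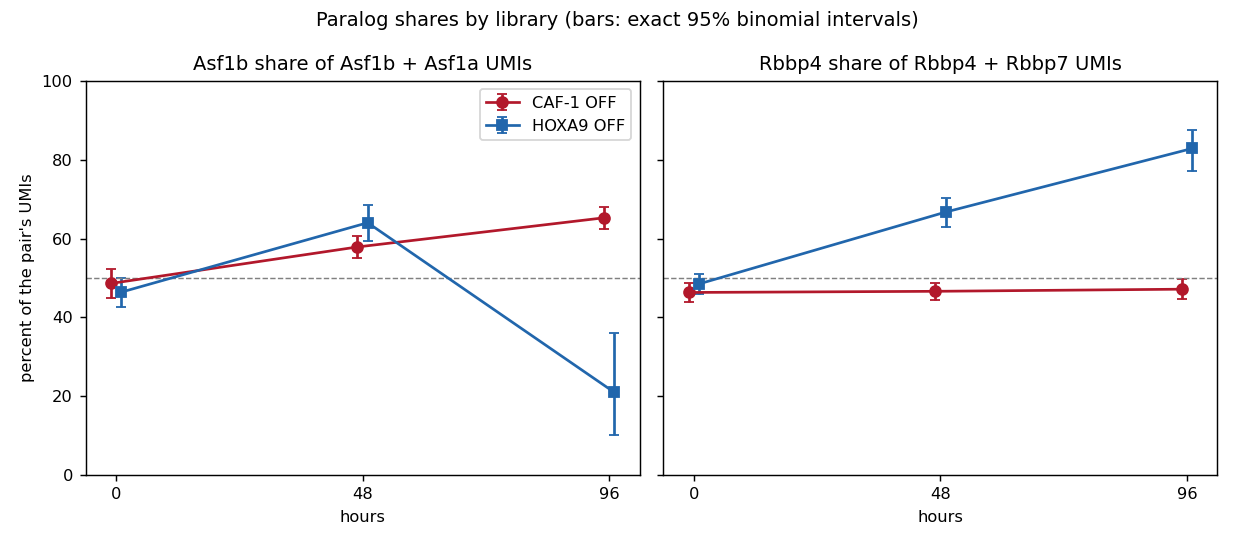
Percent of a paralog pair's UMIs (0 to 100, linear) that came from Asf1b (left, with Asf1a) and from Rbbp4 (right, with Rbbp7) against hours. Red circles are CAF-1 OFF, blue squares HOXA9 OFF, 1 library per point, and bars are exact 95% binomial intervals. The Asf1b share climbs to 65.3% in CAF-1 OFF and peaks at 64.0% at 48 h in HOXA9 OFF, while the Rbbp4 share is flat in CAF-1 OFF and reaches 82.9% in HOXA9 OFF.

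Nasp, the chaperone of the soluble H3-H4 pool, was the member with the largest fall in CAF-1 OFF after the targeted gene, on the scale of log2 ratios with 10 CPM added, although the plain fold of the rarer Hira was larger. Its levels were 179 CPM (166 to 192), 115 CPM (107 to 125) and 82.1 CPM (74.7 to 90.1), 1.55-fold (1.39 to 1.72) and 2.18-fold (1.93 to 2.46) lower. Its HOXA9 OFF levels were 149, 33.7 and 6.24 CPM, 4.43-fold (3.75 to 5.26) and 23.9-fold (15.7 to 38.5) lower. Nasp therefore went down in both arms, and with Asf1b the chaperones of the H3-H4 pool went opposite ways in CAF-1 OFF.

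The H3.3 chaperones gave few UMIs. In CAF-1 OFF, Hira had 12.8 CPM (9.63 to 16.7), then 8.05 CPM (5.87 to 10.8) and 3.52 CPM (2.12 to 5.50), on 54, 45 and 19 UMIs. It was 1.59-fold (1.05 to 2.42) and 3.64-fold (2.12 to 6.50) lower, and its log2 ratios of −0.34 and −0.75 with 10 CPM added understate this. Its HOXA9 OFF levels were 9.55, 2.07 and 2.84 CPM, 4.61-fold (2.32 to 9.96) and 3.36-fold (1.65 to 7.54) lower. Daxx, the partner of Atrx, had CAF-1 OFF levels of 17.1, 18.6 and 17.6 CPM, with ratios to 0 h of 1.09 (0.799 to 1.49) and 1.03 (0.751 to 1.42). Its HOXA9 OFF levels were 23.9, 15.4 and 37.7 CPM, 1.55-fold (1.14 to 2.10) lower at 48 h and 1.58-fold (1.21 to 2.07) higher at 96 h. It was the only member above its 0 h level at 96 h of HOXA9 OFF, and its log2 ratio there lay between 0.19 and 0.94 over the alternatives tried.

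Both FACT subunits were lower at the later times of HOXA9 OFF, and at 96 h of CAF-1 OFF. Ssrp1, which contacts DNA through an HMG box, had CAF-1 OFF levels of 243, 229.5 and 197 CPM, 1.24-fold (1.13 to 1.35) lower at 96 h. Supt16, the large subunit, was at 50.5, 40.1 and 26.5 CPM, 1.26-fold (1.04 to 1.53) and 1.91-fold (1.54 to 2.37) lower. The Ssrp1 share of their UMIs went from 82.8% (80.6 to 84.9) to 88.1% (86.2 to 89.9) at 96 h, so Supt16 lost more than Ssrp1. In HOXA9 OFF, Ssrp1 was at 218, 97.4 and 17.0 CPM, 2.24-fold (2.01 to 2.50) and 12.8-fold (9.87 to 16.9) lower. Supt16 was at 43.2, 13.9 and 7.94 CPM there, with a ratio to 0 h of 0.323 (0.243 to 0.425) at 48 h and 5.44-fold (3.64 to 8.41) lower at 96 h, when the Ssrp1 share was 68.2% (57.4 to 77.7).

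To set the members against the rest of the transcriptome, genes were counted as lower or higher when the log2 ratio to 0 h, with 10 CPM added, reached 2-fold. In CAF-1 OFF at 48 h Chaf1b alone of the 10 was lower and none was higher, where 0.0418% of the 4789 genes past the limit were lower and 2.76% higher. Chaf1b, below that mean, is not among the 2 genes behind the first value. At 96 h Chaf1b and Nasp were lower and none was higher, against 0.856% and 5.22%. Nasp was at −1.04, just past the size, and fell short of it with TMM scaling, a 5% mitochondrial limit, Scrublet calls left out or both uninduced libraries as reference. In HOXA9 OFF at 48 h, Chaf1b, Asf1a, Nasp, Ssrp1 and Supt16 were lower and none was higher, against 19.6% and 13% of all genes. At 96 h all members but Hira and Daxx were lower and none was higher, against 39.8% and 18.1%. With median-of-ratios scaling Rbbp4 fell short of the size there, at −0.97 in place of −1.46. Between the uninduced clones none of the 10 passed the size in either direction, against 0.146% lower and 0.752% higher in HOXA9 OFF.

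Over the 10 members the median log2 ratio at 48 h of CAF-1 OFF was −0.12, beside 0 over all genes counted, and −0.38 beside −0.08 at 96 h. For HOXA9 OFF the members' median was −0.99 beside −0.23 at 48 h and −2.24 beside −0.56 at 96 h. TMM scaling brought the median of all genes in HOXA9 OFF to 0.02 and −0.19. It also changed the split of all genes from 19.6% lower and 13% higher to 13.8% and 16.6% at 48 h, and from 39.8% and 18.1% to 31.1% and 24.3% at 96 h. With it, Ssrp1 and Supt16 fell short of the size at 48 h of HOXA9 OFF, whereas Chaf1b, Asf1a and Nasp still passed.

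**Figure D3:**
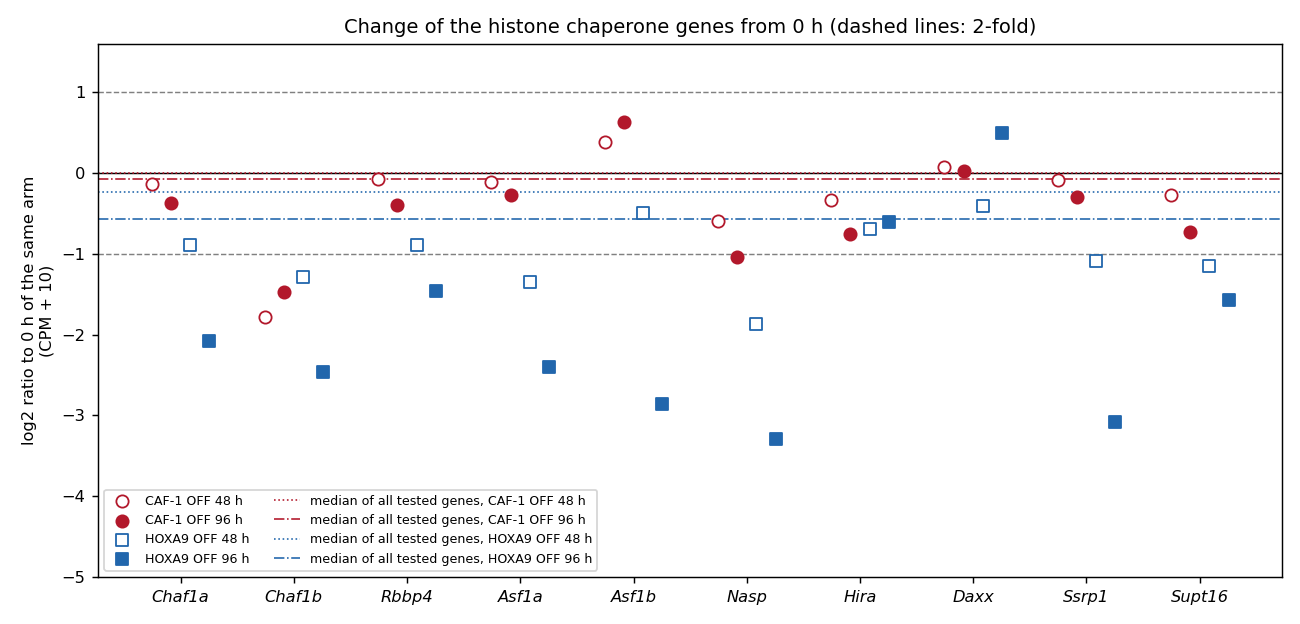
Log2 ratio to the 0 h library of the same arm, after adding 10 CPM to both, for each of the 10 genes. Open marks are 48 h, filled marks 96 h, red circles CAF-1 OFF and blue squares HOXA9 OFF, 1 library against 1 library each. Dashed grey lines mark 2-fold, and coloured lines the median of all 4789 genes in each comparison. Chaf1b sits at −1.79 at 48 h and −1.47 at 96 h of CAF-1 OFF and Asf1b at 0.38 and 0.63, while Nasp reaches −3.29 at 96 h of HOXA9 OFF.

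Another 26 chaperones and chaperone partners, 21 of them past 20 CPM, were read from a list chosen by function, with earlier results known. None passed 2-fold in CAF-1 OFF at either time, where 0.0418% and 0.856% of all genes were lower and 2.76% and 5.22% higher. The list medians were −0.09 and −0.31, beside 0 and −0.08 over all genes. With 10 CPM added, the lowest log2 ratio of the list at 96 h was that of Npm1, the nucleolar chaperone nucleophosmin, at −0.94. Its level went from 3022 to 1571 CPM. In HOXA9 OFF 10 were lower at 48 h and 14 at 96 h, against 19.6% and 39.8% of all genes. None was higher at 48 h and 1 at 96 h, against 13% and 18.1%. The list medians were −0.85 and −1.73, beside −0.23 and −0.56 over all genes. The 10 lower at 48 h were Rbbp7, Hat1, the H3-H4-binding helicase subunit Mcm2, Npm1, Npm3, the H2A-H2B chaperones Nap1l1 and Nap1l4, Set, Ncl and Anp32b. At 96 h Dnajc9, Mms22l, the H2A.Z chaperone Anp32e and Dek were added to these. With 10 CPM added, the lowest log2 ratios there were those of Npm1, from 2926 to 164 CPM, and of Npm3, from 818 to 41.4 CPM. By plain fold Mcm2, from 88.8 to 0.284 CPM on 1 UMI, and Nap1l1, from 391 to 17.9 CPM, were further below 0 h than these. Spty2d1, an H3-H4 chaperone of transcribed genes, was the 1 gene of the list that rose past 2-fold, from 5.97 CPM to 15.4 CPM at 48 h and 37.7 CPM at 96 h, 6.33-fold (4.10 to 10.1).

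As several members are made in dividing cells, their levels were set beside genes of the cell cycle. The sum of 25 S-phase genes, none of them a member, went from 3558 over 3441 to 2809 CPM along CAF-1 OFF, and from 3193 over 1173 to 259 CPM along HOXA9 OFF. That of 25 G2/M genes went from 4374 over 4674 to 4384 CPM and from 4234 over 2386 to 951 CPM. Per 1000 S-phase UMIs, Chaf1a had 9.20, 8.42 and 8.18 along CAF-1 OFF. Its HOXA9 OFF values were 10.1 (8.46 to 11.9) at 0 h and 10.9 at 48 h, and the intervals of these 5 overlap, whereas at 96 h of HOXA9 OFF it had 0 (up to 4.04). Chaf1b in HOXA9 OFF had 16.1 (14.1 to 18.4) at 0 h and 13 (10.3 to 16.2) at 48 h on this scale. Asf1b climbed on it from 25.2 to 34.8 and 51.3 in CAF-1 OFF, and from 25.3 (22.6 to 28.1) to 46.6 (41.4 to 52.2) at 48 h of HOXA9 OFF. At 96 h of HOXA9 OFF it fell to 9.87 (4.51 to 18.7), on 9 UMIs of which 1 cell held 6. Nasp dropped on this scale in both arms, from 50.3 to 33.5 and 29.2 in CAF-1 OFF and from 46.8 to 28.7 (24.7 to 33.3) at 48 h of HOXA9 OFF.

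Cells were then split within each library at 4 S-phase UMIs among 1300 drawn per cell, the median of the uninduced cells. This splits a range and not a cell type, and 99 to 268 cells per library lay within 1 UMI of the limit, apart from 6 in HOXA9 OFF at 96 h. S-phase-rich cells were 64.5%, 59.3% and 45.7% in CAF-1 OFF. They were 54.0% and 11.0% (151 cells) in HOXA9 OFF at 0 and 48 h, and none of 1376 cells at 96 h, where 3 cells would be 0.218%.

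In CAF-1 OFF the changes of Asf1b, Nasp and Chaf1b were present in both classes of cells at this limit. Asf1b at 96 h was 1.90-fold (1.62 to 2.23) above 0 h in S-phase-rich cells and 1.34-fold (1.09 to 1.66) in S-phase-poor cells, from 90.7 to 172 CPM and from 87.9 to 118 CPM. With the limit at 1 S-phase UMI, which leaves 29 and 111 poor cells, the ratio was 1.69 (1.49 to 1.92) in rich and 0.869 (0.476 to 1.68) in poor cells, so the statement on poor cells holds for the higher limit. Nasp was at 0.559 (0.481 to 0.649) of its 0 h level in rich and 0.379 (0.310 to 0.464) in poor cells. Chaf1b at 48 h was at 0.0619 (0.0260 to 0.126) of its 0 h level in rich and 0.152 (0.0681 to 0.307) in poor cells. Chaf1a at 96 h was at 0.906 (0.673 to 1.22) of its 0 h level in rich and 0.554 (0.338 to 0.909) in poor cells. At this higher limit a fall past counting error was thus seen in the poor cells alone. With the limit at 1 S-phase UMI, Chaf1a was at 0.710 (0.549 to 0.916) in rich and 1.27 (0.264 to 12.1) in poor cells. There the fall past counting error was in the rich cells, and the difference between the classes was not tested.

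In HOXA9 OFF at 48 h the classes parted for most members. In S-phase-rich cells the ratio to 0 h was 1.19 (0.776 to 1.80) for Chaf1a, 0.910 (0.627 to 1.30) for Chaf1b and 0.938 (0.784 to 1.12) for Ssrp1. In S-phase-poor cells these genes were at 0.265, 0.200 and 0.375 of their 0 h level, with upper bounds of 0.418, 0.297 and 0.435. Asf1b was 2.09-fold (1.68 to 2.58) above 0 h in the rich cells and 2.18-fold below it in the poor cells, from 92.4 to 193 CPM and from 66.8 to 30.7 CPM. Nasp was below 0 h in both, at 0.549 (0.424 to 0.703) and 0.192 (0.150 to 0.243). With the limit at 1 S-phase UMI, the rich cells of this library were also below 0 h, with ratios of 0.615 for Chaf1a, 0.459 for Chaf1b and 0.602 for Ssrp1, while Asf1b was at 1.13 (0.960 to 1.34). The statement on rich cells therefore holds for the higher limit.

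**Figure D4:**
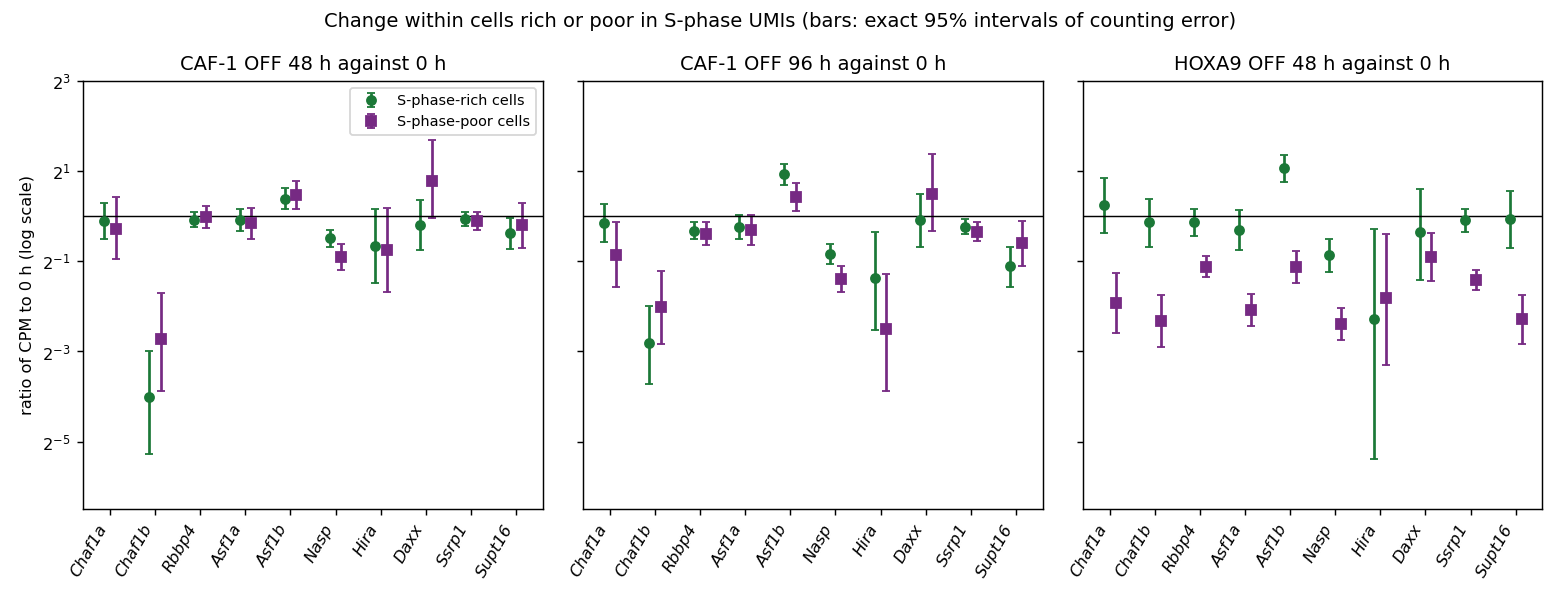
Ratio of CPM to 0 h of the same arm (log scale with base 2) for each of the 10 genes, within cells rich (green circles, at least 4 S-phase UMIs of 1300) and poor (purple squares) in S-phase UMIs. Bars are exact 95% intervals of counting error, and the line at 1 is the 0 h level. In HOXA9 OFF at 48 h the rich cells hold Chaf1a, Chaf1b and Ssrp1 near 1 and Asf1b at 2.09, where the poor cells lie at 0.265, 0.200, 0.375 and 0.460.

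The CAF-1 subunits were also followed cell by cell. At equal depth of 1300 UMIs, Chaf1b had a UMI in 6.16% of cells (4.42 to 8.33) at 0 h of CAF-1 OFF, 0.441% (0.120 to 1.13) at 48 h and 0.887% (0.384 to 1.74) at 96 h. The cells of HOXA9 OFF at 96 h, a separate library, had 0.291% (0.0793 to 0.743) at this depth, and both induced shares have intervals that overlap it. Free RNA stems from a library's own cells, so this comparison cannot tell free RNA from RNA of the cells. Whether some of the HOXA9 OFF cells at 96 h still cycled was not tested, and 1027 of 1376 had no S-phase UMI among 1300. On the CPM of the whole library, 6.49 CPM (4.52 to 9.02) at 96 h of CAF-1 OFF lay apart from the 1.13 CPM (0.309 to 2.91) of that library, and the 48 h level overlapped it. At full depth, 17 cells of 927 (1.83%, 1.07 to 2.92) held a Chaf1b UMI at 48 h and 33 of 911 (3.62%, 2.51 to 5.05) at 96 h, against 4 of 1510 (0.265%, 0.0722 to 0.677). These intervals lie apart, but the median depths were 5998, 5956 and 2043.5 UMIs. Of the 17 cells, 16 had 1 UMI and 1 had 2, and of the 33, 32 had 1 UMI and 1 had 3. Asf1b, in contrast, was found at equal depth in 10.4%, 12.8% and 17.5% of CAF-1 OFF cells, and Nasp in 19.1%, 12.7% and 10.5%. At full depth those shares were 41.9%, 47.6% and 50.7% for Asf1b and 63.8%, 48.2% and 34.5% for Nasp. The HOXA9 OFF cells at 96 h had Asf1b in 0.0727% and Nasp in 0.654% at equal depth.

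To ask whether cells that kept a Chaf1b UMI differed in lineage genes, they were set beside the other cells of the same library. Cells were sorted by Chaf1b at full depth, and only the lineage genes were read at 1300 UMIs, so the sorting depends on depth. At 48 h and 96 h of CAF-1 OFF the median depths were 5682 and 6282 UMIs with Chaf1b, and 6054.5 and 5954 without. At 96 h of CAF-1 OFF, Pf4, a megakaryocyte chemokine, had a UMI in 78.8% (61.1 to 91.0) of the 33 cells and in 721 of the 869 others, whose interval is 80.3% to 85.4%. Elane, the neutrophil elastase gene, had one in 48.5% (30.8 to 66.5) against 60.1% (56.7 to 63.3), and Ms4a3, of early granulocyte precursors, in 69.7% (51.3 to 84.4) against 68.1% (64.9 to 71.2). Itga2b, the platelet integrin CD41, was at 12.1% (3.40 to 28.2) against 7.94% (6.23 to 9.94), and Cd34, of progenitors, at 63.6% (45.1 to 79.6) against 56.2% (52.8 to 59.5). The intervals overlapped for each of these genes, and with 33 cells they are wide. At 48 h the 17 cells gave intervals that also overlapped, for example 29.4% (10.3 to 56.0) against 40.4% (37.2 to 43.8) for Elane. Among cells with Chaf1b, S100a8 had a UMI in 1 cell at each time and Ltf in none.

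A split of the uninduced libraries, chosen after seeing the data, gave a larger gap. Cells were again sorted by Chaf1b at full depth. The median depths with and without Chaf1b were 7017 and 6448.5 UMIs in the shRNA clone, and 9200 and 8475 in the control clone. At 0 h of the shRNA clone, before IPTG, Elane had a UMI in 2 of 135 cells with Chaf1b (1.48%, 0.180 to 5.25) and in 57 of 498 without (11.4%, 8.79 to 14.6). At 2600 UMIs per cell these shares were 3.73% (1.22 to 8.49) and 12.8% (9.94 to 16.1). At full depth they were 11.8% (6.88 to 18.4) of 136 and 20.9% (17.5 to 24.7) of 511 cells, so that the gap was smaller and the intervals overlapped. At 0 h of the control clone the shares were 4.35% (1.77 to 8.75) of 161 and 4.50% (2.48 to 7.44) of 311 cells. Turned round, Chaf1b in the shRNA clone was at 5.69 CPM (2 UMIs) in the 59 cells with an Elane UMI and 38.2 CPM in the 574 without, a ratio of 0.149 (0.0179 to 0.548). In the control clone it was at 43.1 and 52.0 CPM, a ratio of 0.829 (0.353 to 1.66) on 21 cells with Elane. Chaf1a did not share the gap in the shRNA clone, with 39.8 and 32.2 CPM and a ratio of 1.24 (0.657 to 2.16). The other 8 members had ratios between 0.603 and 0.996 there, with intervals below 1 for Nasp, at 0.682 (0.491 to 0.925), and Ssrp1, at 0.779 (0.600 to 0.997). Cells with Elane had 4.10 S-phase UMIs of 1300 on average and those without 4.69, with median depths of 6099 and 6688 UMIs. The part of these values in the gap was not tested, and the difference between the clones was not tested.

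**Figure D5:**
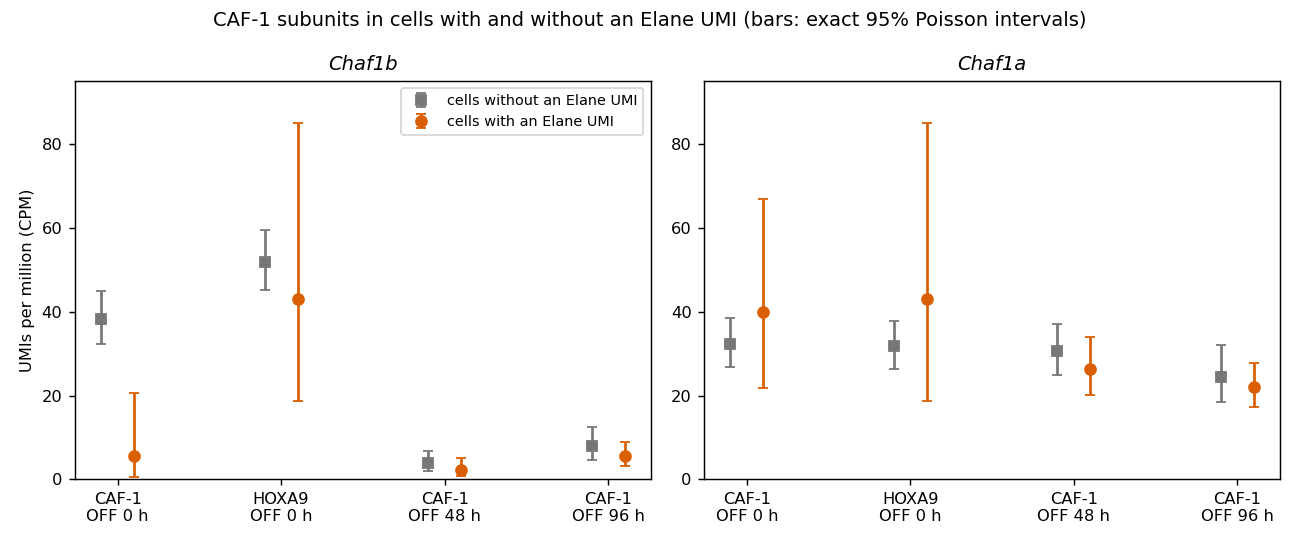
CPM (linear axes from 0) of Chaf1b (left) and Chaf1a (right) in cells with (orange circles) and without (grey squares) an Elane UMI among 1300 drawn, in the uninduced and CAF-1 OFF libraries. Bars are exact 95% Poisson intervals over the UMIs of 1 library. In the uninduced shRNA clone Chaf1b is at 5.69 CPM with and 38.2 CPM without Elane, while the intervals of Chaf1a overlap in each library.

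In induced CAF-1 OFF cells the same splits showed Nasp lower with Elane at both times and with Pf4 at 48 h. The 365 cells with Elane had 93.8 CPM at the earlier time and the 542 without had 129 CPM, a ratio of 0.725 (0.612 to 0.858), and at a ratio of 0.739 (0.610 to 0.890) between cells with and without Pf4. At 96 h the ratio was 0.759 (0.627 to 0.919) for Elane and 0.998 (0.776 to 1.30) for Pf4. Rbbp4, at a ratio of 0.766 (0.670 to 0.876), and Hira, at 0.482 (0.220 to 0.974), were also lower with Elane at 48 h. At that time cells with Elane had fewer S-phase UMIs of 1300 than those without, 4.02 against 4.73, as did cells with Pf4, 3.93 against 4.65, and the part of this was not tested. Asf1b did not differ past counting error by either gene, with ratios of 1.14 (0.971 to 1.33) and 1.08 (0.915 to 1.28) at 48 h and of 1.03 (0.892 to 1.20) and 1.11 (0.916 to 1.37) at 96 h. In HOXA9 OFF at 48 h, by contrast, Asf1b was higher in the 692 cells with S100a8, a neutrophil alarmin gene, than in the 684 without, at 71.2 and 40.1 CPM, a ratio of 1.78 (1.40 to 2.27). Ssrp1 was also higher with S100a8, at 113 and 83.4 CPM, a ratio of 1.36 (1.14 to 1.62). Nasp did not differ past counting error by S100a8, with a ratio of 1.10 (0.812 to 1.496). The cells with S100a8 also had more S-phase UMIs, 1.48 against 1.04 of 1300, and the part of that was not tested.

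Finally, the genes whose profile over the 6 libraries was most like those of Chaf1a, Chaf1b and Asf1b were listed by the root mean square difference of centred log2(CPM + 10) values, among the 4789 genes. For Asf1b they were the kinetochore gene Spc25, the thymidine kinase gene Tk1, the noncoding RNA Lockd, the centromeric histone gene Cenpa and the kinetochore gene Itgb3bp, at 0.0953 to 0.185. Chosen for likeness to Asf1b, all 5 were like it higher at both later times of CAF-1 OFF and lower at both of HOXA9 OFF than at 0 h. Their shared direction is thus no separate result. For Chaf1a they were Prdx3, Gtf2i, Polr1c, Metap2 and Slc25a3, at 0.0383 to 0.0655. For Chaf1b, which the hairpin lowers, the nearest were Sdsl, Rapsn, Nudt1, Ubfd1 and Smim11, at the larger distances of 0.451 to 0.495. Among the members, Ssrp1 was nearest to Asf1b, at 0.330 and rank 46 of all genes. These distances rest on 6 libraries that share depth and composition within each, and describe likeness only.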

How the data were processed

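The UMI counts, whole numbers with genes as columns and barcodes as rows, were used as deposited by the authors, who sorted live cells, prepared 10x Chromium 3′ v2 libraries and aligned reads to GRCm38 with Cell Ranger (3.0.1 in the submitters' processing notes, while the study's methods name another version). The 7821 barcodes were assigned to libraries by their suffix. The study's own limits were used (200 to 6000 genes, no more than 10% mitochondrial UMIs, here over 13 genes), which left 5872 cells and removed 0.198% to 66.2% of barcodes per library. Counts were summed per library and divided by the library total (CPM). Ratios are log2(CPM + 10), and folds are ratios of CPM without that addition. With 1 library per group no test was run, and genes were called by a size of 2-fold among 4789 genes whose mean reached 20 CPM. Shares of cells used 1300 UMIs drawn per cell (1 to 134 cells per library had fewer and were left out). Doublets were left in, and an alternative leaves out Scrublet calls (131 cells, 2.23%). The thinning, folds and calls were tested on simulated data. Named genes are the 10 members, members of the list of 26 further chaperones that reached 2-fold or pair with a member, lineage genes and the 5 nearest profiles of 3 members. Npm1 is named in CAF-1 OFF for the lowest log2 ratio of its list. The members and lists were chosen with earlier results of these data known. Promoters came from RefSeq (GRCm38.p6), the assembly to which the reads were aligned. The 10x counts are of transcript 3′ ends, so levels were compared between libraries and not between genes. Python 3.11.15, SciPy 1.17.1, scanpy 1.11.5 and edgeR 4.0.16 (TMM factors only) were used. Alternatives covered scaling, pseudocount, cell filters, fold size, reference and thinning depth. The splits by lineage genes and the Chaf1b split of the uninduced libraries were chosen after seeing the data.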

Additional observations from a re-analysis of the deposited data

Results flagged for a closer look

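Asf1b moved one way in both later libraries of CAF-1 OFF and the other way in both of HOXA9 OFF, beyond counting error in each. The log2 ratio to 0 h in CAF-1 OFF exceeded that in HOXA9 OFF by 0.87 at 48 h and by 3.48 at 96 h. The difference was not tested, since each arm had 1 library per time point. At 96 h of HOXA9 OFF, Asf1b had 9 UMIs in 4 cells, 6 of them in 1 cell.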

How the results depend on the processing

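No paired analysis was possible because each group had 1 library, and for the same reason no library could be left out. No called member changed direction under any alternative run. The numbers of members at least 2-fold lower were 1 and 2 at the later times of CAF-1 OFF and 5 and 8 at those of HOXA9 OFF. With TMM factors, Nasp dropped out at 96 h of CAF-1 OFF, leaving 1, and 3 remained at 48 h of HOXA9 OFF, as they did with median-of-ratios factors (Chaf1b, Asf1a and Nasp). With TMM factors 0.480% and 13.8% of all genes were lower in these 2 comparisons. Median-of-ratios factors left 7 at 96 h of HOXA9 OFF, without Rbbp4. Adding 50 CPM gave 0, 0, 1 and 5, where 0.0209%, 0.146%, 7.35% and 20.7% of all genes were lower. A mitochondrial limit of 5%, leaving out Scrublet calls and using both uninduced libraries as reference each left 1 at 96 h of CAF-1 OFF. In that order, 1.48%, 0.731% and 0.793% of all genes were lower there. A size of 1.5-fold gave 2 at 48 h and 4 at 96 h of CAF-1 OFF, with 1 higher (Asf1b), and 8 at 48 h of HOXA9 OFF. At this size 1.27% and 8.79% of all genes were lower at 48 h and 96 h of CAF-1 OFF, and 11.7% higher at 96 h. At 48 h of HOXA9 OFF 35.0% were lower. The causes were not tested, except that a larger addition shrinks the ratios of rare genes by construction. Median-of-ratios factors gave 14.9% of all genes lower and 15.6% higher at 48 h of HOXA9 OFF, and 29.5% and 25.5% at 96 h. At 48 h of CAF-1 OFF, Chaf1a, Rbbp4 and Asf1a, none of them called, were higher than at 0 h with the 5% limit. Daxx, also not called, kept its sign in 7 of 9 alternatives at 48 h and 6 of 9 at 96 h of that arm, and Rbbp4 in 7 of 9 at 48 h. Of 60 shares of cells, 52 moved past their interval at 2600 UMIs and 56 without thinning, since shares grow with depth. Genes with few UMIs (Chaf1b after induction, Hira) are limited by counting error.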
